A study of Mus musculus with 72 samples.

Results

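The comparison described here asks which liver genes responded differently to a high-fat diet (HFD) in 2 inbred mouse strains, C3HeB/FeJ (C3H) and C57BL/6J (B6J). It is an interaction, the HFD effect in C3H minus the HFD effect in B6J, and it was computed for all 19938 genes that a probe set with a single gene symbol represents. It rests on 41 of the 72 arrays of the series: 8 control and 7 HFD livers of B6J, and 18 control and 8 HFD livers of C3H. All were male wild-type mice, housed singly and random-fed at sampling. HFD mice ate that diet for 21 days and were 17 weeks old, and controls were 15 to 17 weeks old, so age went partly with diet. The protocol describes a low-fat diet for the controls while their treatment label reads none, so each HFD effect is a difference from these controls, whatever they ate. Replicates carry numbers in the labels, but nothing ties a mouse to a cage, litter or day, so the p-values cover only the spread among the mice sampled.

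Values were log2 signals of Affymetrix Gene ST arrays. The C3H and B6J arrays were on different scales. Array medians ran from 4.51 to 4.62 in B6J and from 3.10 to 3.28 in C3H. The mean interquartile range was 2.91 in the B6 arrays against 2.43 in C3H. Levels were therefore never compared between strains, and each HFD effect was taken within its strain. A narrower scale can shrink an effect, which limits interactions made of effects of 1 sign and unequal size. Scaling cannot turn the sign of an effect within a strain, but it can turn that of an interaction between effects of like size. The files hold no measure of background, so group means below the median of their arrays were read as low levels, at which a difference may be understated. The liver markers Alb, Apoa1, Ttr and Serpina1c lay at or above the 99.9th percentile of every array. Pancreatic acinar genes varied between livers of 1 group, with an array mean over 20 genes of 4.85 to 10.99 in B6J controls, 4.71 to 10.21 in B6J HFD, 3.37 to 6.79 in C3H controls and 3.31 to 5.97 in C3H HFD livers. None of the 20 passed the test of the interaction, and their median interaction was -0.57 with none of the 20 above 0. The B6J arrays also fell into a pair of parts along their first principal component, of 4 control and 5 HFD and of 4 control and 2 HFD arrays. These parts followed the replicate numbers: controls 1 to 4 with HFD 1 to 5, and controls 5 to 8 with HFD 6 and 7.

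Dietary fat reaches the liver as fatty acids, which are esterified and stored, exported in lipoproteins, or oxidised in mitochondria and peroxisomes. The fatty acid receptor PPARα induces the oxidation genes, among them the Cyp4a ω-hydroxylases and the pantetheinase Vnn1. The xenobiotic receptors CAR and PXR control many cytochrome P450 genes of the Cyp2b and Cyp3a families. Several of these P450 genes, Cyp2b9 and Cyp3a44 among them, are also known for higher expression in female than in male mouse liver.

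Interaction calls were few, and most of them were P450 enzymes. At an adjusted p under 0.05 (limma, Benjamini-Hochberg over all genes), 8 genes were called, which is 0.0401% of the genes tested. In 7 genes (0.0351%) the effect in C3H was the higher one: Cyp2b9, Cyp4a31, Cyp3a44, Cyp4a10, Vnn1, Cyp3a11 and Ugt3a1. In 1 gene (0.00502%), Cyp17a1, it was the lower one. The interaction reached at least 1 log2 unit in 7 of the 8. In 4 of the 8 the effects of the strains had opposite signs (Cyp3a44, Cyp3a11, Ugt3a1 and Cyp17a1). The B6J effect of Ugt3a1 (-0.05 ± 0.14) and the C3H effect of Cyp17a1 (-0.03 ± 0.17) could not be told from 0. In Cyp3a44 and Cyp3a11 both opposite effects were themselves called, although the C3H calls were lost in 6 and 5 of the 13 alternative settings. Leaving out any 1 of the 41 arrays gave 6 to 9 called genes. A fit of these 41 arrays alone called 12, the same 8 with Cyp4a14, Dio1, Grk5 and Nat8f5. An unadjusted p under 0.05 was reached by 858 genes, 4.30% of those tested, 517 with a higher and 341 with a lower interaction.

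The effects of the single strains were called more often. In C3H, HFD changed 170 genes (0.853%), of which 103 rose (0.517%) and 67 fell (0.336%). In B6J it changed 59 genes (0.296%), of which 26 rose (0.130%) and 33 fell (0.166%). Without B6J control replicate 5, the B6J count was 38. C3H had more arrays, and its median SE of an HFD effect was 0.0892 log2 units, against 0.109 in B6J. The fit shared 1 spread per gene across strains, so this difference in SE reflects array numbers and not the spread within each strain. The median residual SD was 0.229 in the C3H arrays and 0.196 in the B6 arrays. With a spread for each strain, 109 genes were called in C3H and 74 in B6J. The numbers of calls are thus not on equal terms. A total of 35 genes was called in both strains, 20.6% of the C3H calls and 59.3% of the B6J calls. Of these, 33 moved the same way (19 higher and 14 lower) and 2 moved in opposite directions. Of the 135 genes called in C3H and not in B6J, 4 had a called interaction, and of the 24 called in B6J and not in C3H, 1 did. For the others, a difference between the strains was not shown.

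**Figure D1:**
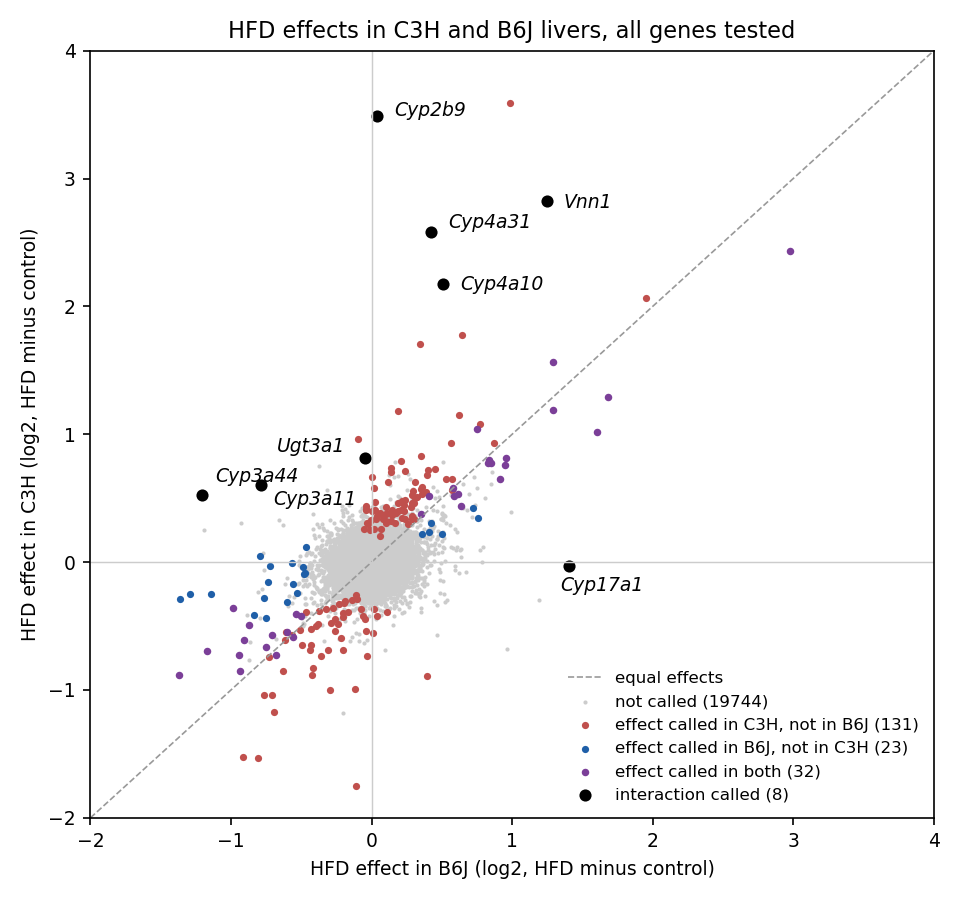
HFD effect of each of the 19938 genes tested in B6J (x axis) and C3H (y axis), in log2 units, coloured by the call at an adjusted p under 0.05, with a dashed line where both effects are equal. The 8 black points are the genes of the called interaction: Cyp3a44 and Cyp3a11 lie in the quadrant of a fall in B6J and a rise in C3H, and Cyp2b9, Cyp4a31 and Cyp4a10 lie far above the line with B6J effects from 0.04 to 0.51.

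Across all genes, the effects of the strains correlated weakly (Pearson r = 0.29, a description over genes, which are not independent replicates). The same sign in both strains was found in 52.6% of all genes, in 152 of the 170 genes called in C3H and in 54 of the 59 called in B6J. For a typical gene, the 95% interval of the interaction reached 0.28 log2 units to either side, a factor of 1.21. This interval is not adjusted for the number of genes, so a call needed a larger difference. The smallest called interaction was 0.86, of Ugt3a1.

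Cyp3a44 and Cyp3a11, members of the Cyp3a family of drug- and steroid-oxidising enzymes, fell in B6J and rose in C3H. Cyp3a11 is a main hepatic P450 of the mouse and a textbook PXR target. Both genes lie on chromosome 5 on the minus strand. The 250 bases before the start of each gene are shown because the pair moved together in both strains, and because they hold the same hexamer. They come from RefSeq, build GRCm38.p6, and capitals mark AGGTCA, a hexamer that many nuclear receptors bind.
Cyp3a11, chr5:145879855-145880104, minus strand: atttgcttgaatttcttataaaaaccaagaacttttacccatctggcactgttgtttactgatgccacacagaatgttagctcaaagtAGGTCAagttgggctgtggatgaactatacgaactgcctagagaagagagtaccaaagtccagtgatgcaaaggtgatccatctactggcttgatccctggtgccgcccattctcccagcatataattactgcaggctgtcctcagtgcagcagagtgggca
Cyp3a44, chr5:145805875-145806124, minus strand: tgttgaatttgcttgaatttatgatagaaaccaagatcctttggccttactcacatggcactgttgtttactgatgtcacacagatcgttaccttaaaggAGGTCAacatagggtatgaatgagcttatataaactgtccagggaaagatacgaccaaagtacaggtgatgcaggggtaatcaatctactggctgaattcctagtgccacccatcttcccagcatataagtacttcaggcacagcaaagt
Over an alignment of 265 columns the sequences shared 190 bases (71.7%). The hexamer starts 162 bases before the start of Cyp3a11 and 150 bases before that of Cyp3a44. AGGTCA, searched on both strands, stands in 4607 of 32851 RefSeq promoters of this length (14%), and its presence here is a description of the letters, not of binding. Of the 4 called genes with a RefSeq promoter, 3 hold it (Cyp2b9 is shown with its values), and that of Ugt3a1 does not.

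In B6J, Cyp3a44 ran from 7.30 to 8.03 in the 8 controls (median 7.70) and from 6.17 to 6.81 in the 7 HFD livers (median 6.39). The groups did not overlap. C3H values ran from 4.18 to 5.70 in the 18 controls (median 5.29) and from 5.33 to 6.17 in the 8 HFD livers (median 5.68), and 3 HFD livers lay above every control. C3H controls 12 to 18 ran from 4.18 to 5.26, all below every HFD liver, and controls 1 to 11 from 4.62 to 5.70. Cyp3a44 fell 2.30-fold in B6J (95% interval 1.82 to 2.92, adjusted p = 4.19e-06). It rose 1.44-fold in C3H (1.19 to 1.75, adjusted p = 0.0464). The interaction was 1.73 ± 0.22 log2 units (SE, adjusted p = 9.32e-07, limma): the C3H ratio was 3.32 times the B6J ratio (2.44 to 4.52). The C3H rise lies at the threshold. It was no longer called without any 1 of 18 arrays (B6J control replicate 3, B6J HFD 7, C3H control 1, 5 and 12 to 18, and C3H HFD 1, 2, 3, 5, 6, 7 and 8), at 0.46 to 0.55 log2 units and an adjusted p of 0.0501 to 0.138. The interaction itself was called in each of the 41 fits, at 1.67 to 1.80.

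Cyp3a11 showed the same pattern at a higher signal. B6J values ran from 11.87 to 12.29 in controls (median 11.97) and from 10.95 to 11.41 on HFD (median 11.29), without overlap. C3H values ran from 8.05 to 9.94 in controls (median 9.06) and from 9.22 to 10.43 on HFD (median 9.60), with 2 HFD livers above every control and 10 controls below every HFD liver. C3H controls 12 to 18 ran from 8.05 to 9.01, all below every HFD liver, and controls 1 to 11 from 8.58 to 9.94. The controls were divided in this way after their values were seen, and the source of the difference was not tested. Cyp3a11 fell 1.73-fold in B6J (1.33 to 2.24, adjusted p = 0.0343) and rose 1.52-fold in C3H (1.23 to 1.89, adjusted p = 0.0288). The interaction was 1.39 ± 0.24 (adjusted p = 0.00133), and it was called without any 1 array, at 1.30 to 1.47. The single effects were nearer to the threshold. The fall in B6J lost its call without B6J control replicate 1, 2, 3, 4, 5, 7 or 8 or HFD replicate 1, 2, 4, 6 or 7 (adjusted p up to 0.0884). The rise in C3H lost it without C3H control 15 or 16 or HFD 6, 7 or 8 (adjusted p up to 0.126). Of the 13 other settings, the C3H rise of Cyp3a11 lost its call in 5 (adjusted p up to 0.33, and 0.33 log2 units with a replicate block against 0.61), and the B6J fall in 2 (up to 0.174). The C3H rise of Cyp3a44 lost it in 6 (adjusted p up to 0.46, at 0.40 to 0.53). The replicate block sets HFD livers against controls of the same number, so C3H controls 9 to 18 dropped out of its C3H effects. Within the parts of the B6J arrays, Cyp3a44 differed by -1.33 and -1.14 and Cyp3a11 by -0.82 and -0.81.

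Other Cyp3a genes were not called in the interaction. Cyp3a16, Cyp3a25 and Cyp3a57 had interactions of 0.29 ± 0.13, 0.26 ± 0.15 and 0.20 ± 0.12 (adjusted p = 0.998 each), and Cyp3a13, a divergent member, had 0.01 ± 0.21 (adjusted p = 0.999), a sign that turned when the arrays were quantile normalised together, scaled or centred. The means of Cyp3a16 and Cyp3a57 lay below the array median in every group of both strains. Probe sets of close relatives can share signal, which limits every value given for a Cyp3a, Cyp2b or Cyp4a gene. In C57BL/6NTac (B6N), the substrain next to B6J, Cyp3a44 and Cyp3a11 had HFD effects of -1.48 ± 0.17 and -1.08 ± 0.18, and in 129P2/OlaHsd (129) of -1.26 ± 0.17 and -1.06 ± 0.19. Both genes were called as lower on HFD in each, the direction of B6J, where B6N had 183 called genes (0.918%; 0.637% higher and 0.281% lower) and 129 had 115 (0.577%; 0.441% and 0.135%).

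**Figure D2:**
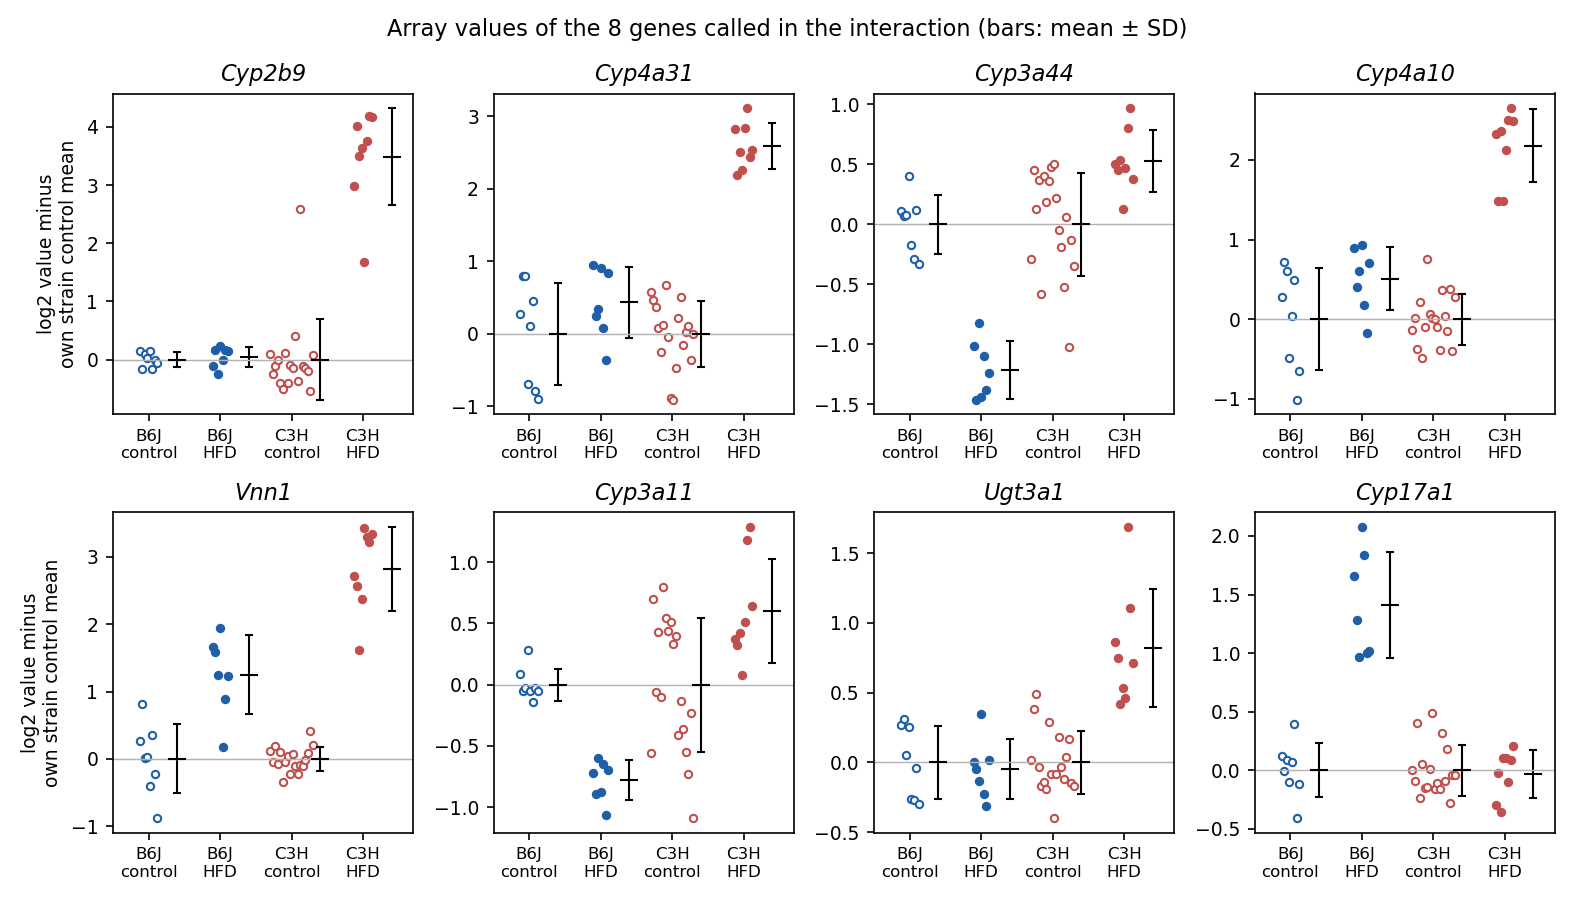
Log2 value of each array minus the mean of the controls of its own strain, for the 8 genes called in the interaction: B6J in blue, C3H in red, controls as open and HFD as filled points, with mean ± SD beside them (8, 7, 18 and 8 arrays). Blue HFD points of Cyp3a44 and Cyp3a11 lie below all their controls while the red ones shift upwards, and 1 C3H control stands apart for Cyp2b9.

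Cyp2b9, a P450 of the Cyp2b family that CAR regulates, rose in C3H, and its B6J means lay below the array medians. It had the largest interaction of the 8 genes. Its RefSeq promoter (GRCm38.p6) is shown because this is the gene with the largest difference, and it holds the hexamer AGGTCA, in capitals, 138 bases before the start.
Cyp2b9, chr7:26173159-26173408, plus strand: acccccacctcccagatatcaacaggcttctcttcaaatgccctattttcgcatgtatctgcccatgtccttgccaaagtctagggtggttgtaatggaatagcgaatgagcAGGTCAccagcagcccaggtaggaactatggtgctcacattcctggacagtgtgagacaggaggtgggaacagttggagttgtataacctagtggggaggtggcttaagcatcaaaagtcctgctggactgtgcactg
In B6J, the 8 controls ran from 3.12 to 3.44 (median 3.30) and the 7 HFD livers from 3.04 to 3.52 (median 3.43), so the groups overlapped throughout. Both group means lay below the median of their arrays, by 1.26 and 1.23 log2 units. In C3H the controls ran from 2.08 to 5.21 (median 2.50) and the HFD livers from 4.30 to 6.81 (median 6.32). C3H control replicate 13 held the value of 5.21, while the 17 others lay at 3.03 or below, under every HFD liver.

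Cyp2b9 rose 11.2-fold in C3H (6.98 to 18.1, adjusted p = 1.05e-11), and the B6J effect was 0.04 ± 0.42 log2 units (adjusted p = 1.0). The interaction was 3.45 ± 0.54 (adjusted p = 1.79e-04), and without C3H control replicate 13 it was 3.60. The C3H controls lay 0.55 below the median of their arrays, so the size of the fold is uncertain. B6N livers on HFD spread from 3.43 to 9.48, with an effect of 3.02 ± 0.41 (adjusted p = 2.16e-07), and 129 livers had 0.07 ± 0.42 (adjusted p = 0.997). A rise of Cyp2b9 was thus called in C3H and B6N. Cyp2b10, the classic CAR target of the family, had 0.38 ± 0.19 in C3H and -0.42 ± 0.23 in B6J, with an interaction of 0.80 ± 0.30 (adjusted p = 0.998). Its means lay 0.03 to 0.52 below the array median in B6J and in C3H controls, so these differences may be understated. Cyp2b13, Cyp2b19 and Cyp2b23 had interactions of 0.05 ± 0.15, -0.08 ± 0.12 and 0.04 ± 0.16 (adjusted p = 0.998 each), the last with a sign that turned under quantile normalisation. All their B6J and C3H group means lay below the array median, so these values say little of a difference.

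Cyp4a31 and Cyp4a10, fatty acid ω-hydroxylases, and Vnn1, which releases vitamin B5 from pantetheine, rose in C3H far more than in B6J. All are known targets of PPARα. Cyp4a31 ran from 2.70 to 4.28 in C3H controls (median 3.66) and from 5.80 to 6.72 on HFD (median 6.13), with no overlap. B6J values ran from 7.38 to 9.07 (median 8.47) and from 7.92 to 9.23 (median 8.62), and 4 of the 7 HFD livers lay within the control range. It rose 6.00-fold in C3H (4.30 to 8.37, adjusted p = 1.73e-12), and the ratio in B6J was 1.34 (0.896 to 2.01, adjusted p = 0.996). The interaction of 2.16 ± 0.38 (adjusted p = 0.00133) was called without any 1 array, at 2.03 to 2.29. Cyp4a31 also rose in B6N, by 1.35 ± 0.28, and in 129, by 1.18 ± 0.29 (limma adjusted p = 0.00231 and 0.0273).

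Cyp4a10 behaved alike. C3H values ran from 3.80 to 5.05 in controls (median 4.30) and from 5.77 to 6.94 on HFD (median 6.63), again without overlap. B6J values ran from 7.96 to 9.69 (median 9.13) and from 8.80 to 9.90 (median 9.58), with 2 HFD livers above all controls. The rise in C3H was 4.52-fold (3.38 to 6.06, adjusted p = 6.63e-12), and the ratio in B6J was 1.42 (0.998 to 2.03, adjusted p = 0.866). The interaction was 1.67 ± 0.33 (adjusted p = 0.0129). With a weight for each array it was 1.41, with an adjusted p of 0.346. Cyp4a10 also rose in B6N, by 1.19 ± 0.25 (limma adjusted p = 0.00214), and had 0.73 ± 0.26 in 129 (adjusted p = 0.326).

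Vnn1 rose in both strains. C3H values ran from 2.90 to 3.67 in controls (median 3.22) and from 4.86 to 6.67 on HFD (median 6.22). B6J values ran from 6.93 to 8.62 in controls (median 7.83) and from 7.98 to 9.76 on HFD (median 9.05), with 6 of the 7 HFD livers above every control. The rise was 7.06-fold in C3H (5.27 to 9.47, adjusted p = 1.27e-16) and 2.38-fold in B6J (1.66 to 3.40, adjusted p = 0.0053). The C3H controls lay 0.07 above their array median. Vnn1 also rose in B6N, by 1.89 ± 0.25, and in 129, by 2.17 ± 0.26 (limma adjusted p = 1.38e-07 and 6.12e-08). The interaction was 1.57 ± 0.33 (adjusted p = 0.0323). It lost its call without B6J control replicate 1, 2, 3, 4 or 6, B6J HFD 3, 5, 6 or 7, or C3H HFD 5, 6, 7 or 8, at 1.39 to 1.70 log2 units and an adjusted p of up to 0.176. It also lost it under array weights (adjusted p = 0.480), a spread for each strain (0.0941), median centring (0.0522) and a replicate block (0.0752). Here and for both Cyp4a genes the strains' effects had 1 sign, and the unequal scales limit the comparison. Dividing out the scales raised the interactions to 2.65 (Cyp4a31), 2.08 (Cyp4a10) and 2.11 (Vnn1).

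Close relatives of these genes came near the threshold or stayed far from it. Cyp4a14, the most inducible hydroxylase of the group, had an interaction of 2.61 ± 0.63 (adjusted p = 0.169). It was called in 3 of the 13 other settings: only the C3H and B6J arrays, scaled strain sets, and the first residual component as a covariate. It was also called without B6J control replicate 7. The mean of its C3H controls lay 0.24 below the array median, so the size of the fold is uncertain. Its effect was 3.59 ± 0.40 in C3H (adjusted p = 9.93e-10), where the controls (2.46 to 3.68) and HFD livers (5.25 to 7.23) did not overlap. It was 0.99 ± 0.49 in B6J (adjusted p = 0.861), where controls spread from 7.16 to 10.78. In B6N and 129 it was 2.19 ± 0.47 and 2.09 ± 0.49. Vnn3, a pantetheinase like Vnn1, rose by 1.19 ± 0.15 in C3H (adjusted p = 3.56e-08), against 0.19 ± 0.18 in B6J, with an interaction of 1.0 ± 0.23 (adjusted p = 0.126). Cyp4a12a and Cyp4a12b, male-biased hydroxylases, had interactions of 0.01 ± 0.20 and -0.09 ± 0.22, that of Cyp4a12a with a sign that turned when the strain sets were scaled. Cyp4a12b fell in C3H by 0.52 ± 0.14 (adjusted p = 0.0373), beside -0.43 ± 0.17 in B6J (adjusted p = 0.621).

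Most called fatty acid oxidation genes rose in C3H, and few were called in B6J. Among oxidation and ketone body genes, 29 were measured. Of these, Cyp4a10 and Cyp4a31 were called in the interaction. In C3H, 12 rose and 1 fell (0.517% and 0.336% of all genes), and in B6J, 1 rose (0.130%). Effects were above 0 in 27 of the 29 in C3H and in 25 in B6J. Median effects were 0.32 in C3H and 0.19 in B6J, against 0.01 and 0.00 over all genes. The interaction was above 0 in 24 of the 29 genes, beside 10166 of all 19938, with a median of 0.13. Eci2 and Decr1, auxiliary enzymes for unsaturated fatty acids, rose by 0.57 ± 0.09 and 0.54 ± 0.08 in C3H, beside 0.35 ± 0.11 and 0.36 ± 0.10 in B6J (adjusted p = 0.231 and 0.162). Bdh1, the ketone body dehydrogenase, rose in both, by 0.51 ± 0.08 in C3H and 0.41 ± 0.10 in B6J. Cpt1a, the carnitine transferase of mitochondrial entry, had 0.58 ± 0.18 and 0.75 ± 0.22 (adjusted p = 0.133 and 0.165).

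Among 29 genes of peroxisomal oxidation and acyl-CoA thioesterases, Vnn1 was the only called interaction (0.0401% of all genes). In C3H 10 rose (0.517%), in B6J 3 rose (0.130%), and none fell in either. The median interaction was 0.18, with 22 of the 29 above 0, beside 10166 of all 19938. Abcd2, a peroxisomal importer of fatty acids, rose by 1.57 ± 0.25 in C3H and 1.29 ± 0.31 in B6J, and Pex11a, which drives peroxisome division, by 0.52 ± 0.12 and 0.59 ± 0.15. The thioesterases Acot1 and Acot2 rose by 0.63 ± 0.15 and 0.73 ± 0.16 in C3H, beside 0.12 ± 0.18 and 0.14 ± 0.20 in B6J, with interactions of 0.51 ± 0.24 and 0.60 ± 0.25 (adjusted p = 0.998). Ehhadh, the bifunctional enzyme of peroxisomal β-oxidation, had 0.44 ± 0.12 and -0.16 ± 0.15 (interaction 0.60 ± 0.19, adjusted p = 0.869).

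Ugt3a1, a glycosyltransferase of conjugation, rose in C3H, and its B6J value moved by less than its error. C3H controls ran from 7.05 to 7.94 (median 7.40) and HFD livers from 7.87 to 9.14 (median 8.18), with 6 of the 8 HFD livers above every control. In B6J the values ran from 9.91 to 10.52 in controls (median 10.21) and from 9.90 to 10.56 on HFD (median 10.16). The groups of B6J overlapped over almost their whole range. The rise in C3H was 1.76-fold (1.5 to 2.06, adjusted p = 1.40e-06), and the ratio in B6J was 0.966 (0.793 to 1.18). Ugt3a1 also rose in 129, by 0.70 ± 0.14 log2 units (limma adjusted p = 0.00337), and had 0.20 ± 0.14 in B6N, which was not called. The interaction of 0.86 ± 0.18 (adjusted p = 0.0323) is the smallest of the 8. It lost its call without B6J control replicate 1, 2, 3 or 4, B6J HFD 2, 3, 5, 6 or 7, or C3H HFD 1, 6 or 7, at 0.74 to 0.88 and an adjusted p of up to 0.107. It also lost it under array weights (adjusted p = 0.261), quantile normalisation (0.0892), median centring (0.0532), a spread for each strain (0.0788) and a replicate block (0.106). Ugt3a2, its nearest relative, had an interaction of 0.23 ± 0.16 (adjusted p = 0.998).

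Cyp17a1, the steroid 17α-hydroxylase and lyase, rose in B6J and stayed near the array median in C3H. In B6J, controls ran from 6.04 to 6.84 (median 6.48) and HFD livers from 7.42 to 8.53 (median 7.73), without overlap. In C3H, controls ran from 3.0 to 3.77 (median 3.22) and HFD livers from 2.92 to 3.49 (median 3.32), means that lay 0.10 and 0.05 above the array medians. A fall from so low a level may be understated. Cyp17a1 rose 2.65-fold in B6J (1.98 to 3.54, adjusted p = 1.05e-05), and the ratio in C3H was 0.979 (0.771 to 1.24, adjusted p = 0.992). The interaction was -1.43 ± 0.27 (adjusted p = 0.00561), called without any 1 array at -1.51 to -1.32. With array weights it was -1.49, with an adjusted p of 0.151. Within the parts of the B6J arrays the rise was 1.54 and 1.03. In B6N it was 1.40 ± 0.20 (adjusted p = 2.00e-06), and in 129, 0.30 ± 0.21 (adjusted p = 0.996).

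Several called genes belong to lists of sex-biased liver genes. Of 31 measured female-biased genes, 3 had a higher interaction (Cyp2b9, Cyp3a44 and Cyp4a10) and 1 a lower one (Cyp17a1), beside 0.0351% and 0.00502% of all genes. In C3H 6 rose and 1 fell (0.517% and 0.336% of all genes), in B6J 2 rose and 1 fell (0.130% and 0.166%), and the list medians were 0.07 and 0.04. None of 26 male-biased genes was called in the interaction (limma; 4 had an interaction above 0, beside 10166 of all 19938, median -0.10). In C3H 10 of the 26 fell (0.336% of all genes) and the median effect was -0.48. In B6J 1 fell (0.166%) and the median was -0.21. Complement genes were among those that fell in C3H: C8b by 0.74 ± 0.11 and C6 by 0.73 ± 0.15, beside -0.36 ± 0.14 and -0.03 ± 0.18 in B6J (adjusted p = 0.568 and 1.0). Egfr, the epidermal growth factor receptor, fell by 1.0 ± 0.20 in C3H, beside -0.30 ± 0.25 in B6J. Gstp1, a glutathione transferase, fell in both, by 0.73 ± 0.11 and 0.68 ± 0.13. Cyp7b1, the oxysterol hydroxylase, fell by 0.83 ± 0.15 in C3H, beside -0.42 ± 0.19 in B6J. These lists were chosen with earlier results of these data known, and their counts are no independent support.

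Below the threshold, 13 genes had an adjusted p between 0.05 and 0.2, 10 of them with a higher interaction. They were named after their values were seen. Tff3, a secreted trefoil peptide of mucosal and duct cells, had an interaction of -1.64 ± 0.37 (adjusted p = 0.0592). B6J values ran from 5.37 to 6.08 in controls (median 5.69) and from 5.94 to 9.03 on HFD (median 6.42), and in C3H from 4.51 to 7.10 (median 5.52) and from 4.43 to 5.46 (median 4.90). Without B6J HFD replicate 5, which held the value of 9.03, the interaction was -1.25 with an adjusted p of 0.245. With 1 of 7 other arrays left out, it was called, at an adjusted p down to 0.026.

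Lpl, the lipase that releases fatty acids from circulating triglyceride, fell by 0.99 ± 0.14 in C3H (adjusted p = 1.21e-06). There the controls ran from 4.46 to 6.20 (median 5.39) and the HFD livers from 3.77 to 4.88 (median 4.46), and 16 of the 18 controls lay above every HFD liver. In B6J its effect was -0.12 ± 0.17, with an interaction of -0.87 ± 0.22 (adjusted p = 0.184). Cd36, the fatty acid translocase, rose by 1.71 ± 0.23 in C3H (adjusted p = 1.51e-07), beside 0.34 ± 0.28 in B6J, with an interaction of 1.37 ± 0.36 (adjusted p = 0.246). Dio1, which activates and degrades thyroid hormone, rose by 1.78 ± 0.21 in C3H from controls below the array median, beside 0.65 ± 0.26 in B6J (interaction 1.13 ± 0.34, adjusted p = 0.694). Its interaction was called in 1 of the 13 other settings, with only the C3H and B6J arrays (limma adjusted p = 0.0314).

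Of the other genes of this band, Ces2a, Cyp2c55, Grk5, Nat8f5, Srgap3 and Ajuba fell in B6J. Ces2a, a carboxylesterase, fell in both strains, by 0.98 ± 0.11 in B6J and 0.36 ± 0.09 in C3H (interaction 0.62 ± 0.15, adjusted p = 0.137). B6J controls (10.59 to 11.01) and HFD livers (9.45 to 9.94) did not overlap, and C3H ones did (8.96 to 9.68 and 8.64 to 9.53). Cyp2c55, a P450 of the Cyp2c family, fell by 1.36 ± 0.21 in B6J, beside -0.29 ± 0.17 in C3H (interaction 1.08 ± 0.27, adjusted p = 0.184). Grk5, a kinase of G protein-coupled receptors, fell by 0.79 ± 0.16 in B6J, beside 0.05 ± 0.13 in C3H (0.84 ± 0.21, adjusted p = 0.184). Nat8f5 fell by 1.14 ± 0.17 in B6J. Its C3H means lay below the array median on both diets, where a fall may be understated. Lmbr1l rose by 0.44 in C3H, beside -0.04 in B6J. Cyrib and Nt5e were called in neither strain, with B6J effects of 0.34 and -0.41 (adjusted p = 0.40 and 0.253). Interactions of Cyrib, Nt5e, Lmbr1l, Srgap3 and Ajuba lay between -0.60 and 0.68.

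**Figure D3:**
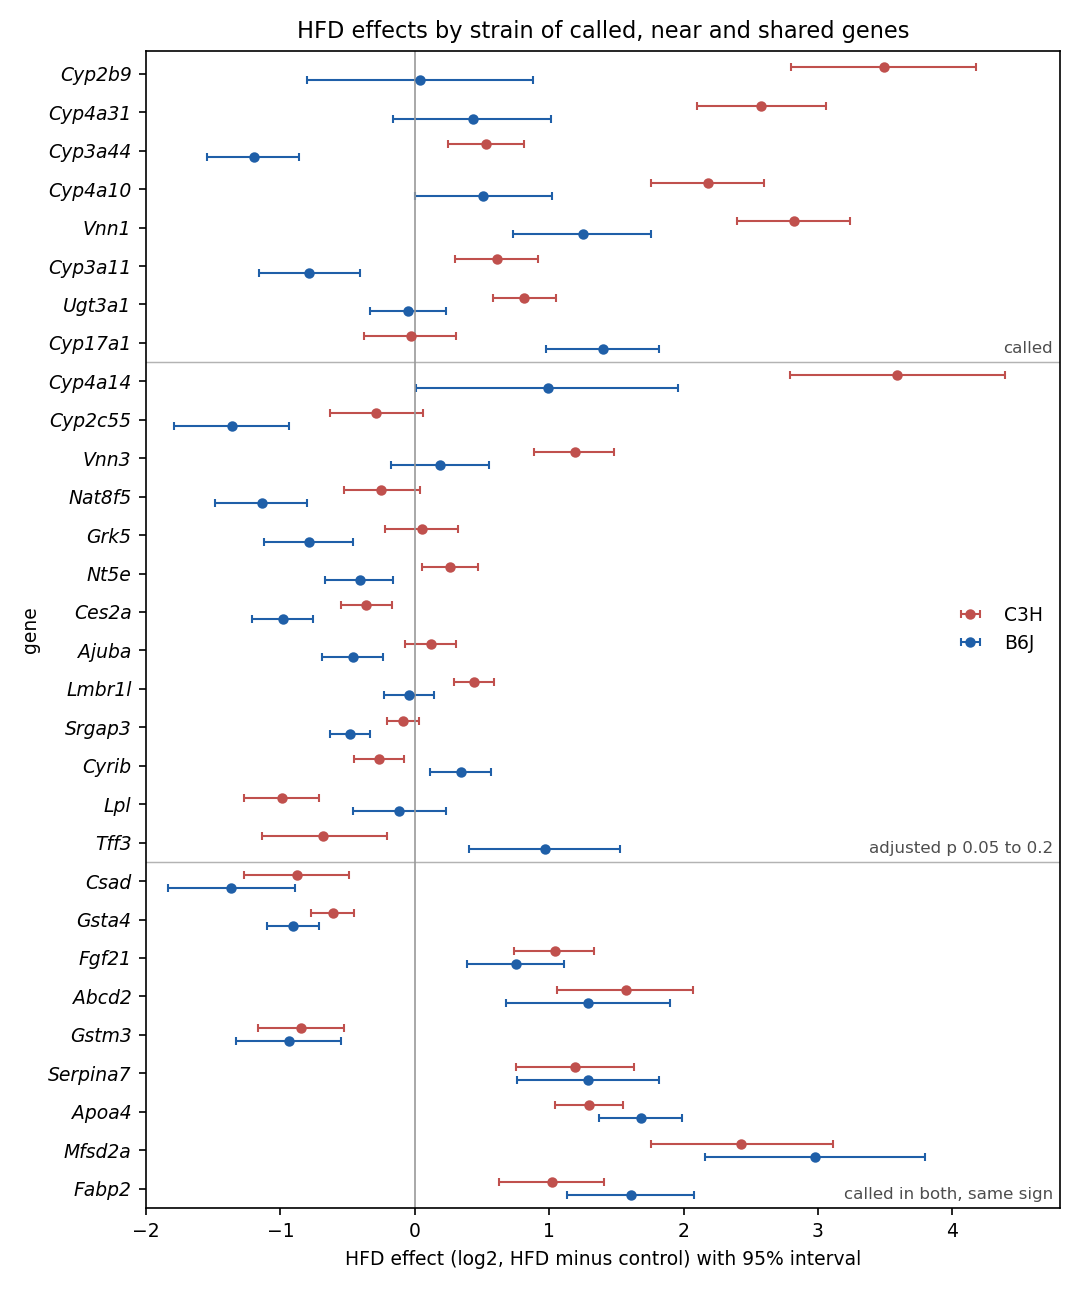
HFD effects (log2) with 95% intervals in C3H (red) and B6J (blue) for the 8 genes called in the interaction, the 13 genes with an adjusted p from 0.05 to 0.2, and named genes called in both strains with 1 sign. Intervals of the strains lie apart in the top block, as in Cyp3a44 (0.53 against -1.20), and overlap in the bottom block, as in Mfsd2a (2.43 against 2.98).

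The 33 genes called in both strains with 1 direction had interactions from -0.59 to 1.57, and Vnn1 was the only called one among them. In 26 of the 33 the effect was larger in B6J and in 7 it was larger in C3H. A call in B6J needed a larger effect, since the SE was larger there, so this split is no test of effect size. Of all 59 B6J calls, 52 had the larger effect in B6J, and of all 170 C3H calls, 138 had it in C3H. B6J also had the wider scale, whose part was not tested. Mfsd2a, a transporter of lysophospholipids, rose by 2.43 ± 0.34 in C3H and 2.98 ± 0.41 in B6J. Its B6J controls (5.37 to 7.22) and HFD livers (8.66 to 9.72) did not overlap, and in C3H (3.14 to 7.41 and 6.56 to 8.53) 5 HFD livers lay above every control. Apoa4, an apolipoprotein of fat absorption and secretion, rose by 1.30 ± 0.13 and 1.68 ± 0.16, with no overlap in either strain. Fabp2, an intracellular carrier of fatty acids, rose by 1.02 ± 0.20 and 1.61 ± 0.24, Serpina7, thyroxine-binding globulin, by 1.19 ± 0.22 and 1.29 ± 0.27, and Fgf21, the fasting hormone, by 1.04 ± 0.15 and 0.75 ± 0.18. Fads2, the Δ6 desaturase, rose by 0.81 ± 0.16 and 0.96 ± 0.19. None of these interactions was called, but that does not show equal effects: the 95% interval was -1.61 to 0.52 for Mfsd2a, -0.79 to 0.02 for Apoa4 and -1.20 to 0.03 for Fabp2.

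Of the 14 genes that fell in both strains, Gsta4, Gstm3, Gstm6 and Gstp1 belong to the list of glutathione and antioxidant defence, and Hal, Csad and Ddc to that of amino acid breakdown. Of 37 measured genes of glutathione and antioxidant defence, 6 fell in C3H (0.336% of all genes) and 6 in B6J (0.166%), the same genes only for these 4. In C3H the others were Gstm1 and Gstm2, and in B6J Gstm4 and Gsto1. None was called in the interaction (limma; median interaction 0.05, 26 of 37 above 0, beside 10166 of all 19938). Gsta4, a transferase that clears lipid peroxidation products, fell by 0.61 ± 0.08 in C3H and 0.91 ± 0.10 in B6J, with an interaction of 0.30 ± 0.13 (unadjusted p = 0.0203, adjusted p = 0.998). Gstm3 fell by 0.85 ± 0.16 and 0.94 ± 0.20. Of 38 genes of amino acid breakdown and the urea cycle, 10 fell in C3H (0.336% of all genes) and 3 in B6J (0.166%), with none called in the interaction. Csad, an enzyme of taurine synthesis, fell by 0.88 ± 0.20 and 1.37 ± 0.24, and Ddc, the aromatic amino acid decarboxylase, by 0.73 ± 0.15 and 0.94 ± 0.18. Cth, the cystathionine lyase, fell by 0.65 ± 0.10 in C3H, beside -0.43 ± 0.12 in B6J (adjusted p = 0.131).

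Of 31 P450 genes of families 2 and 3, 3 were called in the interaction (Cyp2b9, Cyp3a11 and Cyp3a44; 0.0401% of all genes), and 22 had an interaction above 0, beside 10166 of all 19938. The median was 0.19. In C3H 4 rose and 2 fell (0.517% and 0.336% of all genes), and in B6J none rose and 3 fell (0.130% and 0.166%; Cyp3a44, Cyp3a11 and Cyp2c55). Cyp2c38 rose by 0.96 ± 0.24 in C3H, beside -0.10 ± 0.29 in B6J (interaction 1.06 ± 0.38, adjusted p = 0.998). Of 25 conjugation enzymes and carboxylesterases, Ugt3a1 was called in the interaction, with 1 member higher and 4 lower in C3H (0.517% and 0.336% of all genes) and 2 lower in B6J (0.166%).

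**Figure D4:**
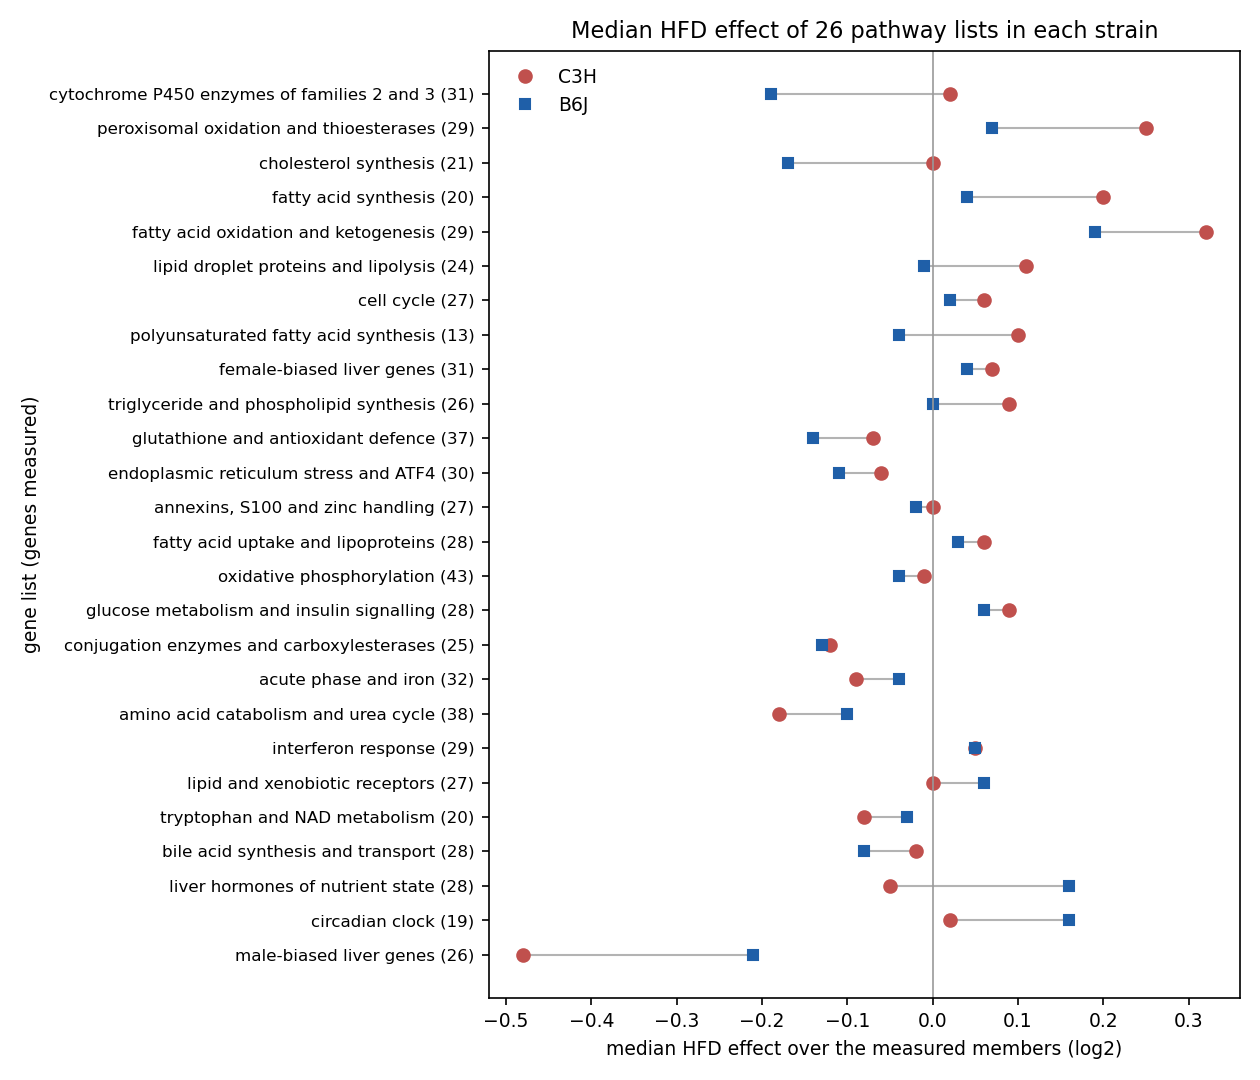
Median HFD effect (log2, x axis) over the measured members of each of the 26 pathway lists in C3H (red circles) and B6J (blue squares), ordered by the median interaction, with the number of genes measured in brackets. Cytochrome P450 genes of families 2 and 3 stand at the top (0.02 against -0.19) and male-biased genes at the bottom (-0.48 against -0.21).

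Lipogenesis and its regulators showed no called difference. Among 20 genes of fatty acid synthesis none was called in the interaction (limma; median 0.13). Scd1, the Δ9 desaturase, had effects of -0.11 ± 0.17 and -0.13 ± 0.21 in C3H and B6J, Fasn, the fatty acid synthase, 0.71 ± 0.31 and 0.24 ± 0.38, and Srebf1, the lipogenic transcription factor, 0.25 ± 0.22 and 0.26 ± 0.27. None of these 6 effects was called. The interactions of Scd1 and Srebf1, 0.03 ± 0.27 and -0.01 ± 0.34, changed sign when the strain sets were scaled. Plin2, which coats lipid droplets, rose by 0.68 ± 0.10 in C3H, beside 0.40 ± 0.12 in B6J (adjusted p = 0.207). Cidec, a droplet fusion protein, had 0.10 ± 0.14 and 0.63 ± 0.17 (interaction -0.53 ± 0.22, unadjusted p = 0.0175). The receptor genes Ppara and Nr1i3, which encodes CAR, had interactions of -0.26 ± 0.22 and 0.18 ± 0.29. Cyp7a1, the rate-limiting enzyme of bile acid synthesis, fell by 1.53 ± 0.34 in C3H, beside -0.91 ± 0.42 in B6J (adjusted p = 0.789, interaction -0.62 ± 0.54).

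Markers of other liver cells were read beside these results. In bulk liver, fewer cells of a type and less RNA per cell cannot be told apart. No member of the 13 cell type lists was called in the interaction. For 26 macrophage and Kupffer cell markers, the array mean ran from 6.26 to 6.47 in B6J controls and from 6.33 to 6.78 on HFD, and from 4.41 to 4.76 and 4.30 to 4.73 in C3H. Their median interaction was -0.12, with 3 of 26 above 0. Of the neutrophil markers, 0 of 13 lay above the array median in any group. Means of 19 hepatocyte markers ran from 11.90 to 12.20 in B6J and from 10.87 to 11.49 in C3H. With the acinar mean as a covariate, all 8 genes were called. This covariate was centred within each group, so it could change the error but not an effect. Whether acinar or macrophage content had a part in the interaction was thus not tested.

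**Figure D5:**
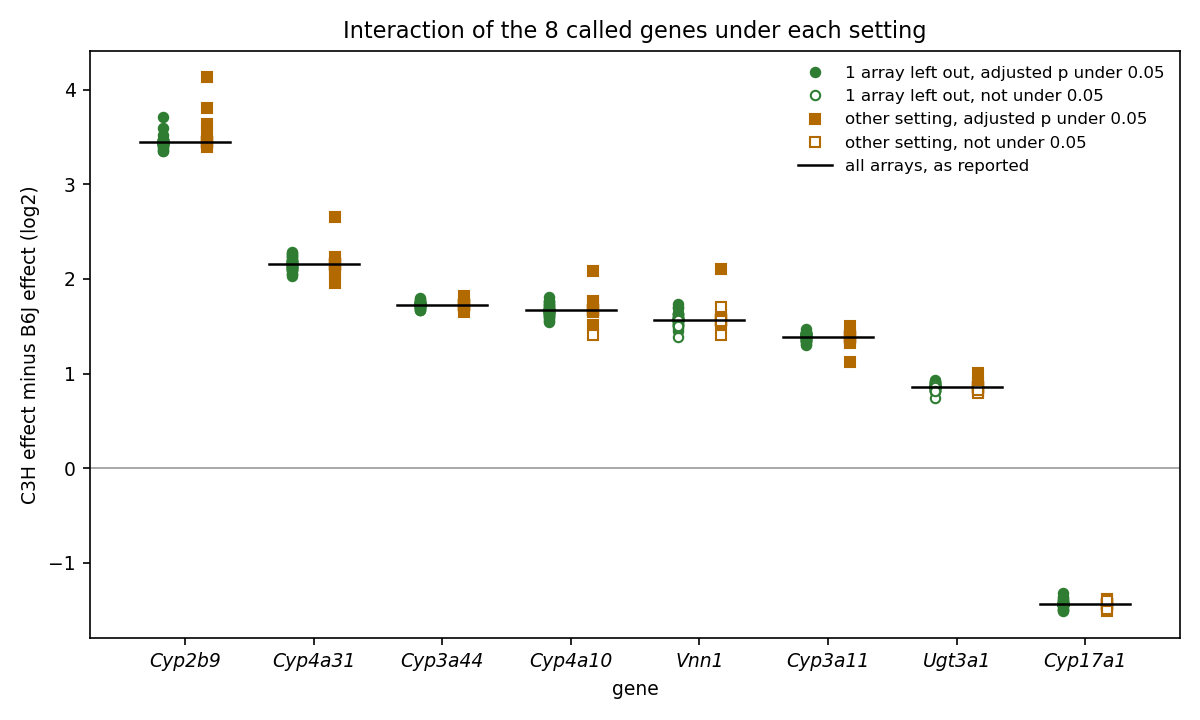
Interaction (log2, C3H effect minus B6J effect) of the 8 called genes with all arrays (black line), with 1 of the 41 arrays left out (green circles) and under the other settings (orange squares); open symbols mark an adjusted p that was not under 0.05. No interaction changed sign, and open symbols stand for Vnn1, Ugt3a1, Cyp17a1 and Cyp4a10.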

How the data were processed

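Liver RNA of 72 mice was measured on Affymetrix Gene ST arrays. The authors deposited log2 values per probe set, made with RMA (background correction, quantile normalisation and probe summary); the submitters' processing notes name Affymetrix Expression Console 1.1. Array medians fell on 3 scales (129, the B6 substrains, C3H); whether the arrays were normalised together is not given in the sources used here. Of 35556 probe sets, 21789 had 1 gene symbol, which gave 19938 genes (999 with more than 1 probe set, the one with the highest mean used).

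Each gene was fitted with limma 3.58.1 in R 4.3.3, with 1 mean for each of 8 groups over all 72 arrays, 64 residual degrees of freedom and eBayes moderation. Tests were two-sided, genes were called at a Benjamini-Hochberg adjusted p under 0.05, and errors are SE. Tested on simulated data for the 19938 genes of this interaction, the fit recovered 70% of 1.5-fold and 99% of 2-fold differences, with 4.52% of calls false. The simulation changed 100 genes of each size, with normal noise and 1 spread per gene for all strains. In the data the strains differed in spread and only 8 genes were called, so these rates may not hold there.

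The comparison and the 39 gene lists were chosen with earlier results of these data known. Of the 54 named genes, some follow a rule (called genes, up to 4 called members of a pathway list, a set list of liver genes, and genes called in both strains by effect size). Added after their values were seen were genes with an adjusted p of 0.05 to 0.2 and relatives of called genes. Alternatives covered the arrays fitted, spread, array weights, normalisation, scale, centring, dim genes, probe sets, eBayes, a replicate block, each array left out, and 3 added covariates or blocks. RefSeq promoters (GRCm38.p6) were used for 4 of the 8 called genes.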

Additional observations from a re-analysis of the deposited data

Results flagged for a closer look

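The 8 called interactions are each a tested difference of the HFD effect between the strains, C3H minus B6J in log2 units: Cyp2b9 3.45, Cyp4a31 2.16, Cyp3a44 1.73, Cyp4a10 1.67, Vnn1 1.57, Cyp3a11 1.39, Ugt3a1 0.86 and Cyp17a1 -1.43.

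Single arrays stood apart from the rest of their group in 10 of 162 pairs of a named gene and a group of at most 10 arrays, and chance gives such a gap in about 1 in 20. In B6J controls these were the highest value of Rgs16 (7.96, next 5.70), of Fgf21 (5.40, next 4.84) and of Cyp2b13 (3.33, next 3.08), and the lowest of Cyp7b1 (10.53, next 11.05). In B6J HFD livers they were the highest of Tff3 (9.03, next 6.80) and of Cyp2c55 (5.32, next 4.54), and the lowest of Dio1 (7.84, next 8.66) and of Slc39a4 (5.70, next 6.51). In C3H HFD livers they were the highest of Cyp2b13 (3.0, next 2.32) and of Cyp2b19 (3.11, next 2.64). None of the 8 called genes had such an array in these groups; the 18 C3H controls were not examined in this way.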

How the results depend on the processing

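Cyp2b9, Cyp3a44, Cyp3a11 and Cyp4a31 were called in the interaction under all 13 alternative settings and with each of the 41 arrays left out in turn. Among these settings, the acinar and component covariates were centred within groups. They could change the error and so the calls, but not the size of an effect. With only the C3H and B6J arrays, 12 interactions were called, adding Cyp4a14, Dio1, Grk5 and Nat8f5. The interaction count was 4 with array weights (without Cyp17a1, Cyp4a10, Ugt3a1 and Vnn1) and 16 with the first residual component as a covariate. The count of called interactions with opposite signs, 4 as reported, was then 2 and 9, and 2 with a replicate block. The C3H count of 170 was 109 with a spread for each strain, 105 with array weights, 295 after quantile normalisation and 367 with the component. The B6J count of 59 was 129 with array weights, 33 after scaling the strain sets and 135 with the component. Leaving out 1 array gave 6 to 9 called interactions, 3 to 5 of opposite sign, 139 to 210 genes in C3H and 38 to 64 in B6J.

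Whether same-numbered arrays were a pair was not settled by the check used. Their deviations correlated from -0.294 to 0.50 in B6J and from -0.271 to 0.185 in C3H. In B6J the own-number control ranked 1 of 8 for HFD replicates 2 and 7 and 2 of 8 for 3 and 6. It ranked 5, 4 and 7 for replicates 1, 4 and 5. In C3H the ranks ran from 5 to 15 of 18. With the replicate block, 7 interactions were called, 5 of them among the 8, without Cyp17a1 (adjusted p = 0.227), Ugt3a1 (0.106) and Vnn1 (0.0752). C3H controls 9 to 18 and B6J control 8 had no HFD array of their number, so they dropped out of the effects of this fit. A change under the block can therefore come from the controls left out as well as from pairing.

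Signs turned in the following values, each within 0.11 of 0 as reported. Array weights gave 0.01 for Cyp17a1 in C3H and interactions of -0.13 for Scd1, -0.36 for Rgs16, -0.13 for Cyp3a13 and -0.10 for Cyp4a12a. Quantile normalisation gave -0.01 for Cyp2b23 and -0.02 for Cyp3a13, and median centring -0.00035 for Cyp3a13. Scaled sets gave -0.01 for Scd1, 0.02 for Srebf1, 0.12 for Serpina7, -0.10 for Gstm3, -0.01 for Cyp3a13 and -0.10 for Cyp4a12a. The replicate block gave 0.24 for Srebf1, -0.03 for Rgs16, 0.01 for Serpina7 and -0.14 for Cyp4a12a. A block for the B6 parts, chosen after seeing the data like both covariates, gave -0.06 for Cyp2b9 in B6J, and 0.08 for Srebf1, 0.04 for Serpina7 and -0.02 for Cyp4a12a. With 1 array left out, the C3H effect of Cyp17a1 ran from -0.07 to 0.02, and interactions ran from -0.05 to 0.11 for Cyp2b13, -0.02 to 0.08 for Cyp2b23, -0.05 to 0.09 for Scd1, -0.12 to 0.16 for Srebf1, -0.23 to 0.29 for Rgs16, -0.26 to 0.04 for Serpina7, -0.12 to 0.11 for Cyp3a13, -0.09 to 0.11 for Cyp4a12a and -0.18 to 0.01 for Cyp4a12b. The cause of these changes was not tested.

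Background was not measured. Among named genes, a group mean of B6J or C3H lay below the array median in Cyp2b9, Cyp2b10, Cyp2b13, Cyp2b19, Cyp2b23, Cyp3a16, Cyp3a57, Cyp4a14, Dio1, Cyp2c55, Nat8f5, Srgap3 and Ajuba, which limits their differences. Unequal scales limit interactions of 1 sign. The fit shared 1 spread per gene across strains, so its SE differs between strains only by the number of arrays.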

Other observations

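Genes outside the lists were also called within strains, and those named here were chosen after their values were seen. None had a called interaction. Slc13a2, a citrate and dicarboxylate carrier, fell in both strains, by 0.69 in C3H and 1.17 in B6J (adjusted p = 5.37e-04 and 1.45e-06). Nat8, an acetyltransferase, fell by 0.66 and 0.75, and Ethe1, which oxidises sulfide in mitochondria, by 0.49 and 0.87. Slc10a2, the sodium-dependent bile acid transporter, rose by 0.76 in C3H and 0.95 in B6J. None of these interactions was called (adjusted p = 0.998).

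In C3H, Aldh3a2, the fatty aldehyde dehydrogenase, rose by 1.15 (adjusted p = 3.66e-09), beside 0.62 in B6J (adjusted p = 0.0784), and Crat, the carnitine acetyltransferase, by 0.83, beside 0.36. Urad, an enzyme of urate breakdown, fell by 0.88, beside -0.42 in B6J (adjusted p = 0.236). Serpina4-ps1 had the lowest C3H effect of the called genes, -1.75 (adjusted p = 0.033), beside -0.11 in B6J, with an interaction of -1.64 and an SE of 0.71 (adjusted p = 0.998). In B6J, Paxx, a DNA repair factor, fell by 0.77 (adjusted p = 6.75e-06), beside -0.28 in C3H (adjusted p = 0.19), and Vcam1, an adhesion molecule of endothelium, rose by 0.50 (adjusted p = 0.0382), beside 0.22 in C3H (adjusted p = 0.553).

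Hamp, the iron hormone hepcidin, fell by 0.89 ± 0.23 in C3H (adjusted p = 0.0288), beside 0.40 ± 0.28 in B6J, with an interaction of -1.28 ± 0.36 (adjusted p = 0.48). Slc39a4, a zinc importer, fell by 1.29 ± 0.25 in B6J (adjusted p = 0.00156), beside -0.25 ± 0.20 in C3H, with an interaction of 1.04 ± 0.32 (adjusted p = 0.745).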
